A study of Mus musculus with 14 samples.

Results

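Myeloid progenitors that had lost Dnmt1 were compared with long-term hematopoietic stem cells (LT-HSCs) that had lost it, the 2 ends of the stem and progenitor hierarchy sampled by the study. The arrays were assigned by their labels alone, as the samples of these sorted populations from Cre+ mice, and they are 5 of the study's 14 arrays: 3 of knockout myeloid progenitors and 2 of knockout LT-HSCs. Knockout myeloid progenitors were lineage-negative, c-Kit+ and Sca-1- bone marrow cells of Dnmt1fl/fl Mx-Cre mice. Knockout LT-HSCs were the lineage-negative c-Kit+ Sca-1+ cells without CD34, from mice of that same genotype. Both groups came from mice of 8 to 12 weeks on a C57BL/6 background, which were injected with poly(I)poly(C) 7 times, at 25 ug/kg every other day, and were killed 4 days after the last injection. Mx-Cre is a Cre recombinase transgene under an interferon-inducible promoter, so the agent that deletes Dnmt1 also sets off an interferon response, and deletion is not limited to blood cells. The marrow of 4 to 6 mice was pooled for each array, so the errors describe pools. The other 9 arrays held multipotent progenitors of both genotypes and control LT-HSCs and myeloid progenitors, whose mice carried the floxed alleles without Cre and were injected alike.

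Dnmt1 is the maintenance methyltransferase that copies the methylation pattern of a DNA strand onto its newly made partner, so dividing cells without it lose methylation. LT-HSCs divide rarely and can rebuild all blood lineages. Lineage-negative, c-Kit+, Sca-1- cells contain the committed precursors of granulocytes, monocytes, erythrocytes and megakaryocytes, and the granulocyte precursors among them fill their primary granules with proteases and peroxidase under the control of factors such as C/EBP alpha and PU.1.

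Each array was deposited as 1 linear intensity for each probe set. Tests used log2(intensity + 16) after quantile normalization. A difference is a log2 difference, knockout myeloid progenitors minus knockout LT-HSCs, with its standard error from a limma fit of all 14 arrays. Adjusted p-values are Benjamini-Hochberg values over the 8612 genes tested, and "called" means an adjusted p under 0.05. The fit takes 1 common residual spread per gene for all groups. The median over genes of the SD among arrays was 0.177 for the 3 knockout myeloid progenitor arrays and 0.339 for the 2 knockout LT-HSC arrays. Across genes, arrays correlated at 0.974 to 0.980 within knockout myeloid progenitors, and the 2 knockout LT-HSC arrays correlated at 0.900. The Gapdh 3' to 5' ratio, a sign of RNA quality in which a higher value means fewer 5' ends, was 2.33, 4.35 and 2.36 in knockout myeloid progenitors and 5.15 and 2.46 in knockout LT-HSCs. The Actb ratio did not follow it, at 1.13, 1.02 and 1.04 in knockout myeloid progenitors and 0.754 and 1.09 in knockout LT-HSCs.

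The deleted gene was measured at similar levels at both ends. Dnmt1 had intensities of 1055, 1084 and 1193 in knockout myeloid progenitors, and of 1170 and 1305 in knockout LT-HSCs. It had 1328, 2156 and 1571 in control myeloid progenitors and 2219 and 1818 in control LT-HSCs. Every knockout array lay below every control array of its population, and signal remained in all 5 knockout arrays. No source used here gives the probe set's place relative to the deleted part, so what remains cannot be read as undeleted cells. Between the knockout populations Dnmt1 differed by -0.28 ± 0.24 (adjusted p = 0.559).

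The markers used for sorting gave a mixed picture. Cd34, whose protein was absent from the sorted LT-HSCs by gate, had intensities of 443, 268 and 346 in knockout myeloid progenitors, against 20.5 and 68.9 in knockout LT-HSCs. Kit, whose protein both gates required, had 377, 377 and 310, against 178 and 280, with a difference of 0.64 ± 0.36 (adjusted p = 0.374). A second Kit probe set differed by -0.32. With the gene's probe sets averaged the difference was 0.16 (adjusted p = 0.817). Ly6a, which encodes Sca-1, was not analysed here. Some stem cell genes were higher in the LT-HSC arrays, as given with the stem cell genes, but their sum did not set LT-HSCs apart. The summed intensity of 23 stem cell genes was 4298, 4482 and 4521 in knockout myeloid progenitors and 4924 and 6666 in knockout LT-HSCs. In knockout multipotent progenitors it was 8769.5 and 6270. The LT-HSC arrays also carried signal of lymphoid genes, and the source of that signal was not tested. The summed intensity of 22 B cell genes was 4017, 3386 and 3104 in knockout myeloid progenitors and 15962 and 11522 in knockout LT-HSCs. The summed intensity of 24 T and NK cell genes was 832, 929 and 971 in knockout myeloid progenitors and 2853 and 4924 in knockout LT-HSCs. Both knockout LT-HSC arrays were above all 3 myeloid progenitor arrays for both sums. In a pooled bulk sample, a change in the number of cells of a type and a change in RNA per cell cannot be told apart, so every difference from here on is one between sorted samples.

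Of 8612 genes, 206 were called higher in knockout myeloid progenitors (2.39%) and 117 lower (1.36%), together 3.75%. At an unadjusted p under 0.05 the count was 1538 (17.9%). The arrays of the groups did not overlap for 1683 genes in the higher direction (19.5%) and for 1707 in the lower direction (19.8%), which is many more than were called. The differences of the called genes had a median of 1.76 among those higher and -1.89 among those lower. Over all genes tested the median was -0.01. The count depended on single arrays. Without knockout LT-HSC array 1 it was 93, and without array 2 it was 708. Leaving out knockout myeloid progenitor array 1, 2 or 3 gave 167, 206 and 146. A core of 72 calls, 51 higher and 21 lower, remained without each of the 5 arrays in turn.

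**Figure D1:**
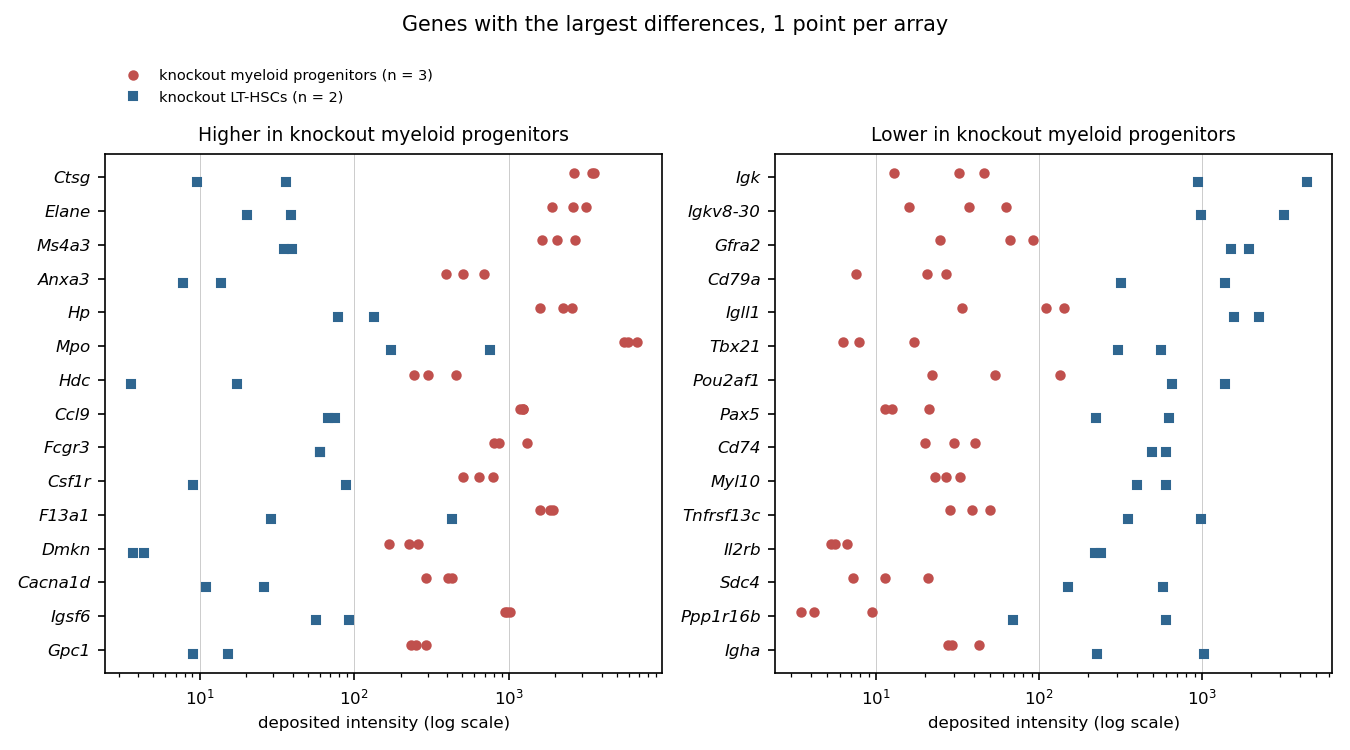
Deposited intensity (log scale) of the 15 called genes with the largest difference in each direction, 1 point per array, with 3 arrays of knockout myeloid progenitors as red circles and 2 of knockout LT-HSCs as blue squares. The groups do not overlap for any gene shown, by the way these genes were chosen; Ctsg lies between 2641 and 3584 in knockout myeloid progenitors and at 36.3 and 9.66 in knockout LT-HSCs.

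Genes of primary granules were higher in knockout myeloid progenitors, with the highest median of the 32 lists examined. Of 22 listed granule and granulocyte commitment genes, 19 were measured and tested, and 16 of them were called higher and 0 lower, against 2.39% of all genes called higher. The list's median difference was 2.99. Leaving out 1 array left 10 to 14 of these calls, with the fewest without knockout LT-HSC array 1. Ctsg, which encodes the granule protease cathepsin G, had intensities of 3472, 2641 and 3584 in knockout myeloid progenitors, against 36.3 and 9.66 in knockout LT-HSCs. It rose by 6.40 ± 0.59 (adjusted p = 0.000208), the largest difference of any gene called. Elane, which encodes neutrophil elastase, had 2614, 1898 and 3194, against 38.9 and 20.2 in knockout LT-HSCs. Its difference was 5.79 ± 0.60 (adjusted p = 0.000352).

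Mpo, which encodes myeloperoxidase, reached the highest intensities of the granule genes named here, at 5921, 5596 and 6755 in knockout myeloid progenitors. In knockout LT-HSCs it was measured at 758 on array 1 and 173 on array 2, so transcript was present there too and the LT-HSC arrays differed among themselves. The difference was 3.90 ± 0.46 (adjusted p = 0.000596), and it ran from 2.76 to 5.05 as single arrays were left out, remaining called each time. Prtn3, which encodes proteinase 3, had 2629, 2384 and 2732 in knockout myeloid progenitors, against 458 and 189 in knockout LT-HSCs, a difference of 2.99 ± 0.33 (adjusted p = 0.000459). For both genes knockout LT-HSC array 1 was the higher of the LT-HSC arrays, and no array crossed into the other group.

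Genes of other functions in the list moved with the proteases. Ms4a3, which encodes a membrane protein of granulocyte-monocyte progenitors, had 2061, 1645 and 2685 in knockout myeloid progenitors, against 35.1 and 39.9 in knockout LT-HSCs (5.27 ± 0.57, adjusted p = 0.000352). Anxa3, which encodes the phospholipid-binding annexin A3, had 506, 395 and 693, against 13.8 and 7.82 (4.40 ± 0.62, adjusted p = 0.00179). Hp, which encodes the hemoglobin-binding protein haptoglobin, had 1597, 2237 and 2571, against 134 and 79.1 (4.08 ± 0.71, adjusted p = 0.00562). The calls of Ctsg, Elane, Mpo, Prtn3, Ms4a3, Anxa3 and Hp all remained without each array in turn. The list members not called were Plac8 (1.16), Sirpa (1.12) and Calr (0.10), named here because they were the exceptions.

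The sequences of the 250 bases before the gene start are shown for the 4 protease and peroxidase genes, as genes of the granule enzymes, and for Cd79a, a B cell gene lower in knockout myeloid progenitors, as a contrast. They are RefSeq sequences of build GRCm38.p6, written 5′ to 3′ on the strand of the gene. Capitals mark AGGAAGT, a form of the core bound by PU.1 and other ETS factors, searched on both strands and chosen after the sequences had been read, so its presence in these windows follows from that choice. Prtn3 (chr10:79879417-79879666, plus strand) and Elane (chr10:79886062-79886311, plus strand) are neighbours whose starts lie 6645 bases apart. Mpo is at chr11:87793534-87793783 (plus strand), Ctsg at chr14:56102575-56102824 (minus strand) and Cd79a at chr7:24897247-24897496 (plus strand).
Ctsg: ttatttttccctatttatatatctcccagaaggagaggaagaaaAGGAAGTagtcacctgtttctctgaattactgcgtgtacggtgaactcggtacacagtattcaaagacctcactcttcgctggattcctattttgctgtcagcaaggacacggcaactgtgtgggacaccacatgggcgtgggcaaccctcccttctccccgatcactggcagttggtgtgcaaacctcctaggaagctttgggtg
Elane: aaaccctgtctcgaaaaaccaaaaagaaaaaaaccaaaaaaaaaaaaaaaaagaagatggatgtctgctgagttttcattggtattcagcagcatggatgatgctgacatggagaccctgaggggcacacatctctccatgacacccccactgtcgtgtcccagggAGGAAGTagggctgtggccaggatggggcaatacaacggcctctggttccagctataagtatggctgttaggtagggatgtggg
Mpo: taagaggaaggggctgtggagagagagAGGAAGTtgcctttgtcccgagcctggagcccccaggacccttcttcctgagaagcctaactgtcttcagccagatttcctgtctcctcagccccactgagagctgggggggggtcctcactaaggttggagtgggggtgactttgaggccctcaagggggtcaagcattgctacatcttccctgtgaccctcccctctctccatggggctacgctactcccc
Prtn3: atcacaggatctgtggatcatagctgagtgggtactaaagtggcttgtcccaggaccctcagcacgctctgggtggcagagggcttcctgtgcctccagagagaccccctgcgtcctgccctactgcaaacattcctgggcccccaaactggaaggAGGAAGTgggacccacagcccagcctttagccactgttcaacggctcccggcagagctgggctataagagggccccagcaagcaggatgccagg
Cd79a: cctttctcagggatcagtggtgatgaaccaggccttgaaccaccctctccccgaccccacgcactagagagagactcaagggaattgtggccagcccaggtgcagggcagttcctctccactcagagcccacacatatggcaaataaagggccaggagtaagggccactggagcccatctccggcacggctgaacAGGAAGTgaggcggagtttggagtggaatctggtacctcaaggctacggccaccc
The letters start 206 bases before the gene start of Ctsg, 84 before Elane, 223 before Mpo, 94 before Prtn3 and 55 before Cd79a. A promoter sequence was matched for 7036 of the 8612 genes tested. AGGAAGT occurred in 22 of 167 promoters of genes called higher (13.2%), in 11 of 87 of genes called lower (12.6%) and in 7.49% of all 7036. TTGCNNAA, a loose form of the site of C/EBP factors, occurred in 13.2% of the higher genes' promoters, 12.6% of the lower genes' and 7.55% of all. The shares for AGATAA, the GATA factor site, were 6.59% for the higher genes, 8.05% for the lower genes and 6.01% for all. CAACGG, a MYB site, occurred in 6.59% of the higher genes' promoters, 2.30% of the lower genes' and 5.93% of all. The CCAAT box occurred in 31.1% of the higher genes', 39.1% of the lower genes' and 36.4% of all. For AGGAAGT and TTGCNNAA the shares of higher and lower genes were nearly the same, and a match is a description of the letters only.

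Other large rises belonged to genes of several functions. Dmkn, which encodes the secreted protein dermokine, had 226, 168 and 259 in knockout myeloid progenitors, against 3.73 and 4.38 in knockout LT-HSCs (3.57 ± 0.55, adjusted p = 0.00292). Gpc1, which encodes the heparan sulfate proteoglycan glypican 1, had 291, 234 and 250, against 15.3 and 9.11 (3.36 ± 0.53, adjusted p = 0.00335). Igsf6, an immunoglobulin superfamily receptor gene of myeloid cells and a member of the granule list, had 947, 971 and 1019, against 56.8 and 93.3 (3.45 ± 0.46, adjusted p = 0.00121). Cacna1d, which encodes a calcium channel subunit, had 407, 294 and 432, against 26.0 and 11.1 (3.57 ± 0.54, adjusted p = 0.00253). Its probe set may also bind other transcripts, and its second probe set gave no signal above an intensity of 3.17. All of these calls remained without each array in turn.

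**Figure D2:**
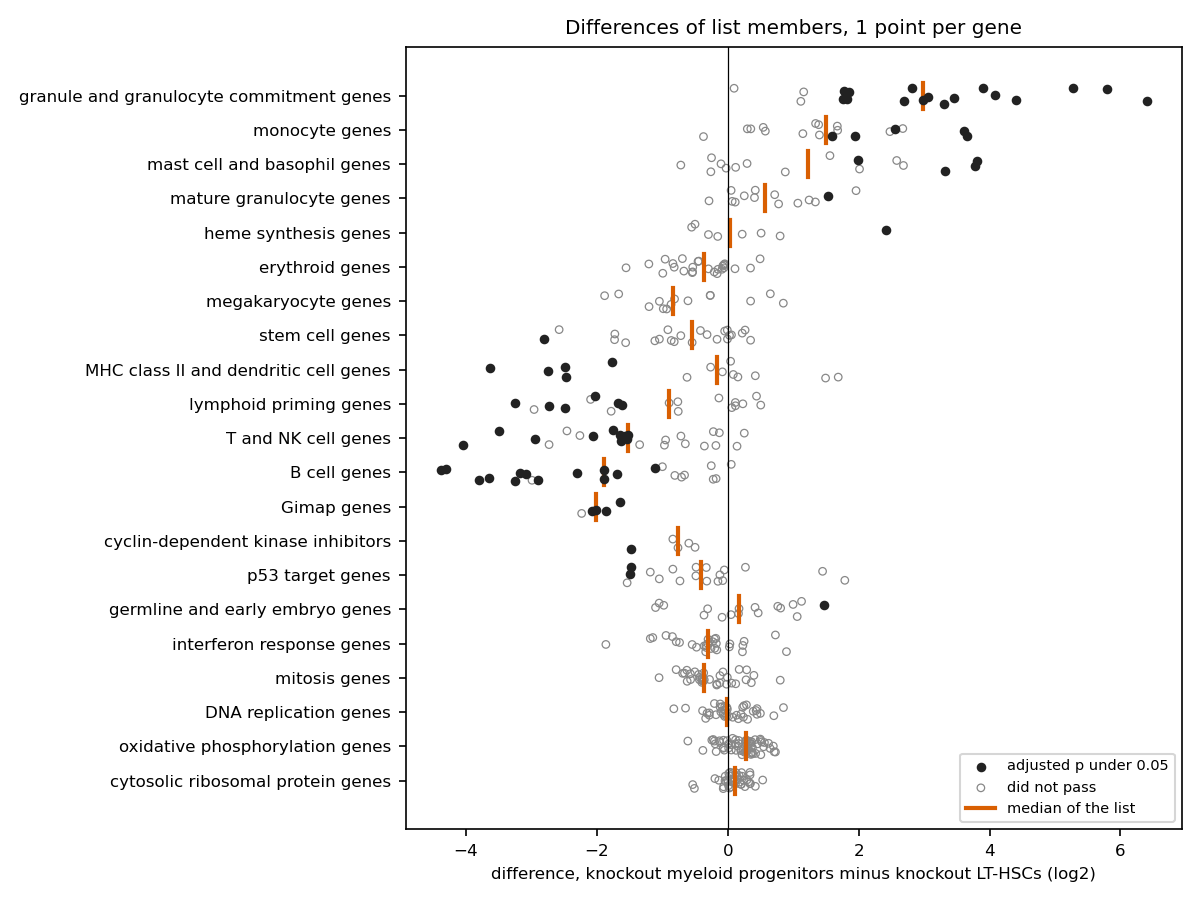
Log2 difference, knockout myeloid progenitors minus knockout LT-HSCs, for the tested members of 21 gene lists, 1 point per gene. Filled points had an adjusted p under 0.05, open points did not, and the orange line is the list's median; granule genes lie at the right with a median of 2.99, and B cell, T and NK cell and Gimap genes lie at the left with medians of -1.89, -1.53 and -2.01.

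Monocyte genes were also higher, with fewer calls. Of 20 listed, 18 were tested, and 5 were called higher and 0 lower, with a median difference of 1.497. Over all genes, 2.39% were called higher. For 1 of the 18, the probe set needed myeloid progenitor arrays of either genotype to pass the filter on dim probe sets. For 15 of the 18 the arrays of the groups did not overlap in the higher direction, beside 19.5% of all genes. Csf1r, which encodes the receptor for the monocyte growth factor M-CSF, had 646, 796 and 503.8 in knockout myeloid progenitors, against 89.3 and 9.09 in knockout LT-HSCs (3.66 ± 0.70, adjusted p = 0.00991). F13a1, which encodes a subunit of coagulation factor XIII, had 1851, 1926 and 1597, against 428 and 29.0 (3.60 ± 0.89, adjusted p = 0.0392). The LT-HSC arrays stood far apart for both genes. Without knockout LT-HSC array 2 neither was called, and the F13a1 difference was 1.85. The F13a1 call was also lost without any 1 of the myeloid progenitor arrays. Mpeg1, which encodes the pore-forming protein perforin-2, had 574, 441 and 552, against 111 and 138 (1.95 ± 0.37, adjusted p = 0.00944), and its call was lost without knockout LT-HSC array 1. The list held 2 or 3 calls whichever array was left out.

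Mast cell and basophil genes gave 4 calls, all higher, among 16 tested of 20 listed. The list's median was 1.22, and 2.39% of all genes were called higher. Ccl9, which encodes a chemokine, had the smallest p of all genes. Its intensities were 1241, 1239 and 1191 in knockout myeloid progenitors, against 75.3 and 67.4 in knockout LT-HSCs, a difference of 3.78 ± 0.22 (adjusted p = 1.49e-06). Hdc, which encodes the enzyme that makes histamine, had 245, 302 and 455, against 3.58 and 17.4 (3.81 ± 0.67, adjusted p = 0.00587). Mcpt8, which encodes a basophil protease, had 131, 96.8 and 696, against 10.7 and 4.59 (3.31 ± 0.84, adjusted p = 0.0449), with array 3 of the myeloid progenitors far above the other two. Fcer1g, which encodes the common signalling chain of Fc receptors, had 858, 586 and 660, against 104 and 241 (2.00 ± 0.35, adjusted p = 0.00535). Only Ccl9 of this list was called without knockout LT-HSC array 1. The Mcpt8 call was also lost without knockout LT-HSC array 2 and without knockout myeloid progenitor array 1 or 3. Of the 16 members, 3 needed myeloid progenitor arrays of either genotype to pass the filter on dim probe sets, which favoured a positive difference.

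Receptors for growth factors and antibodies differed in both directions. Of 27 listed surface receptor genes, 24 were tested, 7 were called higher and 2 lower, and the median was 0.54. Over all genes, 2.39% were called higher and 1.36% lower. Fcgr3, which encodes an antibody receptor used to gate granulocyte-monocyte progenitors, had 873, 807 and 1317 in knockout myeloid progenitors, against 59.8 and 60.4 in knockout LT-HSCs (3.68 ± 0.45, adjusted p = 0.000765). Cd34 rose by 2.77 ± 0.54 (adjusted p = 0.0117), but its protein was part of the LT-HSC gate, and the call was lost without knockout LT-HSC array 1 or knockout myeloid progenitor array 1. The GM-CSF receptor chain genes were higher. Csf2ra had 204, 325 and 285, against 89.5 and 88.2 (1.44 ± 0.28, adjusted p = 0.0117), and Csf2rb had 182, 115 and 314, against 25.9 and 62.6 (1.86 ± 0.39, adjusted p = 0.0161). Il6ra, which encodes the interleukin 6 receptor, had 164, 281 and 150, against 24.4 and 42.2 (2.15 ± 0.46, adjusted p = 0.0188). A second Csf2ra probe set differed by only 0.19. The calls of Csf2ra, Csf2rb and Il6ra were lost without knockout LT-HSC array 1, and the list then held 2 calls higher and 0 lower. Each of the 3 was also lost without 2 of the 3 myeloid progenitor arrays, left out 1 at a time, when the list held 3 or 4 calls higher.

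Transcription factor genes of blood lineages were called in both directions. Of 42 listed, 36 were tested, 4 were called higher and 7 lower, and the median was -0.54. Over all genes, 2.39% were called higher and 1.36% lower. The probe sets of 4 members needed LT-HSC arrays of either genotype to pass the filter, which favoured a negative difference. Cebpa, which encodes the C/EBP alpha factor needed for granulocyte formation, had 607, 389 and 463 in knockout myeloid progenitors, against 94.8 and 37.5 in knockout LT-HSCs (2.69 ± 0.36, adjusted p = 0.00121). Cebpd, of the same family, had 159, 221 and 227, against 11.6 and 3.84 (3.27 ± 0.44, adjusted p = 0.00121). Both remained called without each array in turn. The other calls higher were Gfi1 (1.77) and Spi1 (1.71), which encodes PU.1, named here after their values were seen. The calls lower were Pax5, Ebf1, Irf4, Bcl11a, Tcf3, Gata3 and Id3, of which the last pair was likewise named after the values were seen. These are genes known for B or T lymphoid roles. Without knockout LT-HSC array 1 the list held 3 calls higher and 1 lower, and without array 2 it held 2 higher and 9 lower. Without any 1 myeloid progenitor array it held 2 higher and 2 to 4 lower.

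Genes of mature granulocytes mostly had positive differences but seldom passed the test. Of 20 listed, 14 were tested, 13 had a positive difference and 1 was called higher, beside 2.39% of all genes. The call was Pglyrp1, which encodes a bactericidal peptidoglycan recognition protein (1.54 ± 0.38, adjusted p = 0.0420). Pglyrp1 had 200, 202 and 333 in knockout myeloid progenitors, against 53.8 and 96.4 in knockout LT-HSCs. The alarmin genes S100a8 and S100a9 overlapped between the groups. S100a8 had 952, 602 and 3878, against 92.4 and 2372, and S100a9 had 818, 261 and 4763, against 7.62 and 3131. Myeloid progenitor array 3 and LT-HSC array 2 were high for both. The list's summed intensity was 2371, 1368 and 13703 in knockout myeloid progenitors and 349.8 and 7494 in knockout LT-HSCs. Once knockout LT-HSC array 1 was left out, the list's median was -0.23 in place of 0.57, and none was called. Without array 2 the median was 1.57 and 2 were called. The Pglyrp1 call was also lost without any 1 of the myeloid progenitor arrays. The part of mature granulocytes in these arrays was not tested.

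The erythroid and megakaryocyte lists gave no call in this comparison. Of 26 erythroid genes tested of 35 listed, 0 were called by limma and 6 had an unadjusted p under 0.05, all lower. Of all genes, 17.9% had such a p in either direction. Among the 26, 23 had a negative difference and 3 a positive one. The arrays of the groups did not overlap for 11 in the lower direction and 0 in the higher, beside 19.8% and 19.5% of all genes. To pass the filter on dim probe sets, 1 of the 26 needed LT-HSC arrays of either genotype. The median was -0.37, and 1 gene was called without knockout LT-HSC array 2. Epor, which encodes the erythropoietin receptor, had 142, 198 and 104 in knockout myeloid progenitors, against 507 and 392 in knockout LT-HSCs (-1.55 ± 0.42, adjusted p = 0.0591). Gata1, which encodes the main erythroid and megakaryocyte GATA factor, had 183, 369 and 202, against 605 and 537 (-1.21 ± 0.48, adjusted p = 0.197). Both knockout LT-HSC arrays were above the myeloid progenitor arrays for these genes. Of 14 megakaryocyte genes tested of 22 listed, 0 were called by limma and 5 had an unadjusted p under 0.05, beside 17.9% of all genes. Among the 14, 11 had a negative difference and 3 a positive one. Their arrays did not overlap for 6 in the lower direction and 1 in the higher, beside the same shares of all genes as above. The median was -0.84, and 1 gene was called without knockout myeloid progenitor array 2. F2r, which encodes a thrombin receptor, had 172, 537 and 186, against 828 and 1134 (-1.88 ± 0.55, adjusted p = 0.0800). Among 8 heme synthesis genes, 1 was called higher, beside 2.39% of all genes. It was Alas1, which encodes the housekeeping form of the first enzyme of the pathway, at 461, 449 and 752, against 96.3 and 80.4 (2.41 ± 0.53, adjusted p = 0.0214). This call was lost in 4 of 5 cases when 1 array was left out, the exception being knockout myeloid progenitor array 2.

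**Figure D3:**
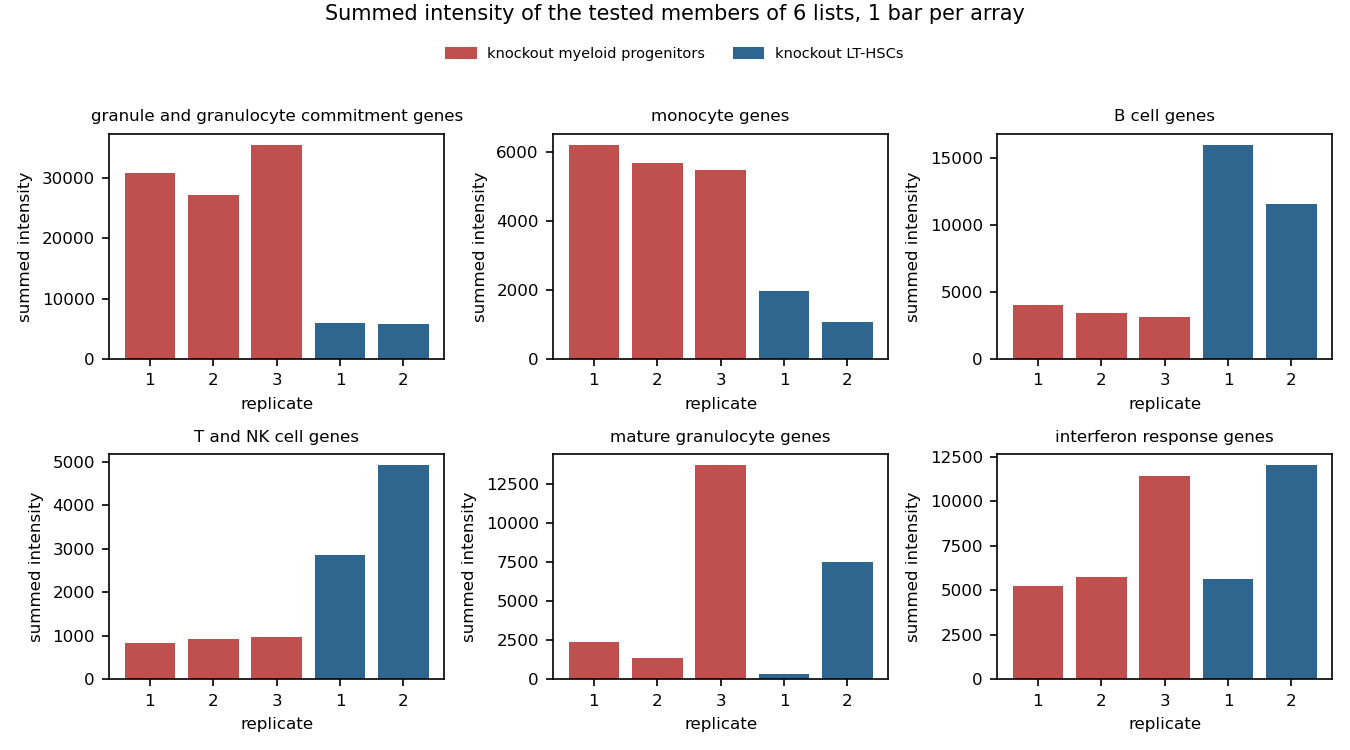
Summed deposited intensity of the tested members of 6 lists, 1 bar per array, with the 3 arrays of knockout myeloid progenitors in red left of the 2 of knockout LT-HSCs in blue. The sums of granule and monocyte genes are higher on all 3 red bars and those of B, T and NK cell genes on both blue bars, while mature granulocyte and interferon response sums are highest on myeloid progenitor array 3 and LT-HSC array 2.

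B cell genes were lower in knockout myeloid progenitors. All 22 measured members of 26 listed were tested, and 13 were called lower and 0 higher, against 1.36% of all genes called lower. The median was -1.89. The probe sets of 3 members needed LT-HSC arrays of either genotype to pass the filter, which favoured a negative difference. Cd79a, which encodes a signalling chain of the B cell receptor, had 26.9, 20.5 and 7.51 in knockout myeloid progenitors, against 1380 and 320.2 in knockout LT-HSCs (-4.38 ± 0.71, adjusted p = 0.00352). Pax5, which encodes the factor that holds B cell identity, had 21.2, 12.5 and 11.3, against 627 and 224 (-3.65 ± 0.52, adjusted p = 0.00193). Blnk, which encodes an adaptor of the same receptor, had 23.8, 11.7 and 7.48, against 284 and 207 (-3.08 ± 0.47, adjusted p = 0.00285). The myeloid progenitor values of these genes lay near or under the 40th percentile of their arrays, which was 20.2 to 22.5.

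Early and surrogate light chain genes were among the others. Vpreb3 had 29.9, 10.9 and 8.12 in knockout myeloid progenitors, against 128 and 158 in knockout LT-HSCs (-2.30 ± 0.35, adjusted p = 0.00253). Igll1, which encodes part of the surrogate light chain of pre-B cells, had 142, 110.1 and 33.5, against 2246 and 1570 (-4.31 ± 0.92, adjusted p = 0.0181). Probe sets for immunoglobulin light chain genes had large falls, with Igk at 46.1, 32.4 and 12.9, against 951 and 4394 (-5.59 ± 0.92, adjusted p = 0.00405), and Igkv8-30 at 62.8, 37.3 and 15.96, against 986 and 3179 (-5.18 ± 0.75, adjusted p = 0.00193). These belong to a family of near-identical segments, so which segment was measured is uncertain. The other 3 Igk probe sets had intensities of at most 44.2 and differed by -0.62 to 0.08. Igha, the heavy chain gene of IgA, had, on the probe set used, 43.0, 29.0 and 27.6, against 1036 and 226 (-3.42 ± 0.85, adjusted p = 0.0420), and its call remained only when knockout LT-HSC array 2 was the array left out. Its other 2 probe sets differed by -5.47 and -2.40. Igll1 was not called without knockout LT-HSC array 1 or knockout myeloid progenitor array 3.

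Calls of Pax5, Blnk, Vpreb3, Igk and Igkv8-30 remained without each array in turn, while those of Cd79a and Ebf1 were lost without knockout LT-HSC array 1. Leaving out that array left 3 of the list called, and leaving out array 2 gave 14. Leaving out knockout myeloid progenitor array 2 or 3 left 8 and 6. The list's median stayed between -2.22 and -1.43. In control mice the summed intensity of the list was 4012, 3064 and 3022 in myeloid progenitors and 21286 and 12291 in LT-HSCs. B cells, early lymphoid cells and stem cells that express such genes cannot be told apart in these bulk samples.

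Genes of lymphoid priming, the early steps toward lymphocytes, were lower as well. Of 22 listed, 19 were tested and 6 were called lower, beside 1.36% of all genes, with a median of -0.90. By the same filter, 2 members depended on LT-HSC arrays, which favoured a negative difference. Another 1 depended on myeloid progenitor arrays, which favoured a positive one. Il7r, which encodes the interleukin 7 receptor, had 37.3, 5.83 and 19.19 in knockout myeloid progenitors, against 145 and 324 in knockout LT-HSCs (-2.73 ± 0.63, adjusted p = 0.0280). Ly6d, a surface marker of B-biased lymphoid progenitors, had 11.3, 17.1 and 7.24, against 130.3 and 75.5 (-2.04 ± 0.34, adjusted p = 0.00422). Bcl11a, which encodes a repressor needed for B cell formation, had 211, 263 and 256, against 721 and 858 (-1.68 ± 0.34, adjusted p = 0.0144). The Il7r call remained only without knockout myeloid progenitor array 1. That of Bcl11a was lost without knockout LT-HSC array 1 and without knockout myeloid progenitor array 1 or 3, and that of Ly6d without knockout LT-HSC array 1. The list held 0 calls without knockout LT-HSC array 1, 4 without knockout myeloid progenitor array 1 or 2, and 2 without array 3.

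T and NK cell genes formed a second lymphoid group. Of 36 listed, 24 were tested and 10 were called lower, beside 1.36% of all genes, with a median of -1.53. For 9 of the 24, the probe set needed LT-HSC arrays of either genotype to pass the filter. That favoured a negative difference, so the share of all genes is not a like background for this list. Il2rb, which encodes a subunit of the receptors for interleukins 2 and 15, had 5.29, 5.63 and 6.63 in knockout myeloid progenitors, against 221 and 239.96 in knockout LT-HSCs (-3.49 ± 0.34, adjusted p = 0.000208). Tbx21, which encodes the T-bet factor of NK and T helper cells, had 6.29, 17.1 and 7.86, against 561 and 306 (-4.04 ± 0.68, adjusted p = 0.00437). Eomes, a related T-box factor gene, had 1.90, 5.15 and 2.61, against 42.2 and 37.6 (-1.53 ± 0.26, adjusted p = 0.00429). The myeloid progenitor values of Il2rb, Tbx21 and Eomes lay under the 40th percentile of their arrays, which was 20.2 to 22.5.

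Other called members included surface and enzyme genes. Thy1, which encodes a surface glycoprotein of T cells that is present at low level on mouse stem cells, had 22.98, 26.2 and 32.0 in knockout myeloid progenitors, against 427 and 235 in knockout LT-HSCs (-2.95 ± 0.39, adjusted p = 0.00120). Cd7, a T and NK cell surface gene, had 13.8, 6.12 and 7.68, against 62.3 and 66.3 (-1.65 ± 0.25, adjusted p = 0.00292). Ctsw, which encodes a cathepsin of cytotoxic lymphocytes, had 7.13, 7.17 and 10.1, against 61.6 and 72.3 (-1.75 ± 0.31, adjusted p = 0.00576). Knockout LT-HSC array 2 had the higher summed intensity of this list and array 1 that of the B cell list. Without array 1 the list held 5 calls, with those of Tbx21, Eomes and Ctsw lost. Those of Il2rb, Thy1 and Cd7 remained without each array in turn.

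The Gimap genes, which encode GTPases of lymphocytes and of early hematopoietic cells, were lower too. Of 8 listed, 5 were measured and tested and 4 were called lower, beside 1.36% of all genes, with a median of -2.01. For 1 of the 5, passing the filter needed LT-HSC arrays of either genotype, which favoured a negative difference. Gimap4 had 46.9, 33.0 and 32.9 in knockout myeloid progenitors, against 134 and 292 in knockout LT-HSCs (-2.01 ± 0.31, adjusted p = 0.00292). Gimap7 had 15.99, 13.02 and 14.02, against 72.3 and 92.1 (-1.64 ± 0.26, adjusted p = 0.00337). Gimap6, the member not called, had 36.2, 30.0 and 45.7, against 183 and 295 (-2.23 ± 0.60, adjusted p = 0.0574), and its arrays did not overlap. The list held 2 calls without knockout LT-HSC array 1.

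MHC class II genes, whose products present peptides to T helper cells, were lower, while other dendritic cell genes of the same list were not called. Of 20 listed, 14 were tested and 5 were called lower, beside 1.36% of all genes, yet the list's median was -0.17. To pass the filter on dim probe sets, 1 of the 14 needed myeloid progenitor arrays of either genotype. Cd74, which encodes the invariant chain of class II molecules, had 40.5, 19.9 and 30.2 in knockout myeloid progenitors, against 605 and 495 in knockout LT-HSCs (-3.63 ± 0.42, adjusted p = 0.000540). H2-Aa, which encodes a class II alpha chain, had 36.2, 16.3 and 37.4, against 322 and 258 (-2.75 ± 0.42, adjusted p = 0.00263). The remaining calls were H2-Eb1 (-2.48), H2-Ab1 (-1.77) and H2-DMb2 (-2.47). Of these only Cd74 and H2-Aa remained called without each array in turn, and without knockout LT-HSC array 1 they were the 2 calls left. The list held 3 without any 1 of the myeloid progenitor arrays.

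Some genes outside the lists also had large falls. Rhoc, which encodes a small GTPase of the cytoskeleton, had 1.23, 4.73 and 9.61 in knockout myeloid progenitors, against 293 and 109 in knockout LT-HSCs (-3.22 ± 0.38, adjusted p = 0.000596). Its probe set may also bind other transcripts, and its second probe set had no signal above 5.09. Gfra2, which encodes a receptor for neurturin, had 91.9, 66.5 and 24.8, against 1950 and 1503 (-4.66 ± 0.81, adjusted p = 0.00544). Sdc4, which encodes the proteoglycan syndecan 4, had 20.8, 11.4 and 7.20, against 579 and 151 (-3.43 ± 0.56, adjusted p = 0.00367). Tnfrsf13c, which encodes the receptor for the B cell survival factor BAFF, had 50.3, 28.4 and 39.0, against 991 and 354 (-3.52 ± 0.61, adjusted p = 0.00535). The calls of Gfra2, Sdc4 and Tnfrsf13c were lost without knockout LT-HSC array 1. Among the 15 largest falls were also Pou2af1 (-3.80), which encodes a B cell coactivator and is in the B cell list, Myl10 (-3.55), which encodes a myosin light chain, and Ppp1r16b (-3.43), which encodes a phosphatase regulatory subunit. These 3 calls were each lost in at least 3 of the 5 fits without 1 array, among them that without knockout LT-HSC array 1.

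Stem cell genes were lower in most cases but seldom passed the test. Of 29 listed, 23 were tested, 18 had a negative difference, and the median was -0.54. Of the 23, 1 was called lower, beside 1.36% of all genes. The arrays did not overlap for 11 of the 23 in the lower direction, beside 19.8% of all genes. Procr, which encodes the endothelial protein C receptor, a surface marker of stem cells, had 21.4, 28.2 and 29.0 in knockout myeloid progenitors, against 429 and 182 in knockout LT-HSCs (-2.81 ± 0.62, adjusted p = 0.0220). Its call remained only when knockout LT-HSC array 2 was the array left out. Esam, an adhesion molecule gene of stem cells, had 1.93, 1.47 and 1.00, against 65.6 and 116 (-2.58 ± 0.69, adjusted p = 0.0558). Slamf1, which encodes the stem cell marker CD150, had 15.8, 24.7 and 13.1, against 75.8 and 124 (-1.73 ± 0.49, adjusted p = 0.0685). Hlf, which encodes a stem cell transcription factor, had 48.3, 72.5 and 138, against 210.4 and 326 (-1.56 ± 0.53, adjusted p = 0.133). For all 4 genes both LT-HSC arrays were above all myeloid progenitor arrays.

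Among cell cycle and stress genes, Cdkn1a and Phlda3 were called lower. Cdkn1a encodes the cyclin-dependent kinase inhibitor p21, a p53 target, and had 85.0, 135 and 105.0 in knockout myeloid progenitors, against 365 and 281 in knockout LT-HSCs (-1.47 ± 0.29, adjusted p = 0.0121). All 5 tested kinase inhibitors had negative differences, with a median of -0.76 and 1 call, beside 1.36% of all genes called lower. For 1 of the 5, the probe set needed LT-HSC arrays of either genotype to pass the filter, which favoured a negative difference. Phlda3, a p53 target that dampens Akt signalling, had 18.2, 30.7 and 22.1, against 102 and 89.3 (-1.49 ± 0.31, adjusted p = 0.0147). Of 18 p53 targets tested, 2 were called lower and 0 higher, beside 1.36% of all genes called lower, and the median was -0.41. Both calls were lost without knockout LT-HSC array 1 and without knockout myeloid progenitor arrays 1 or 3, and a second Cdkn1a probe set differed by -0.39. With a gene's probe sets averaged, Cdkn1a was not called (-0.93, adjusted p = 0.0622). Of 39 DNA replication genes (median -0.02) and 35 mitosis genes (median -0.37), 0 were called by limma, and 2 in each list had an unadjusted p under 0.05. Of all genes, 17.9% had such a p. Among the mitosis genes 27 had a negative difference and 8 a positive one. Their arrays did not overlap for 10 in the lower direction and 3 in the higher, beside 19.8% and 19.5% of all genes. The calls without knockout LT-HSC array 2 were 1 replication gene and 2 mitosis genes.

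Imprinted and germline genes, whose silencing depends on DNA methylation, gave single calls between the 2 knockout populations. Over all genes, 2.39% were called higher and 1.36% lower. To pass the filter on dim probe sets, 2 of the imprinted genes tested needed LT-HSC arrays of either genotype. Of 14 imprinted genes tested of 31 listed, Plagl1, which encodes a zinc finger factor, was called higher, at 87.2, 385 and 115, against 25.1 and 20.7 in knockout LT-HSCs (2.23 ± 0.57, adjusted p = 0.0466). Igf2r, which encodes the receptor that clears insulin-like growth factor 2, was called lower, at 26.7, 59.8 and 48.2, against 179.7 and 126 (-1.49 ± 0.33, adjusted p = 0.0214). A second Igf2r probe set differed by -0.27, and neither call held without knockout LT-HSC array 1. Plagl1 was also lost without knockout LT-HSC array 2 and knockout myeloid progenitor arrays 2 and 3, and Igf2r without knockout myeloid progenitor arrays 1 and 3.

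Of 17 germline and early embryo genes tested of 36 listed, 1 was called, the meiotic chromosome axis gene Sycp3 (1.47 ± 0.38, adjusted p = 0.0458). To pass the filter on dim probe sets, 2 of the 17 needed myeloid progenitor arrays of either genotype and 1 needed LT-HSC arrays. Sycp3 had 33.9, 56.5 and 90.2 in knockout myeloid progenitors, against 10.4 and 12.5 in knockout LT-HSCs, and no call remained when any 1 of the 5 arrays was left out. Tex19.1, a germ cell and placenta gene known as a target of DNA methylation, was high at both ends, at 193, 920.5 and 707 in knockout myeloid progenitors and 1023 and 985 in knockout LT-HSCs. It differed by -1.05 ± 0.56 (adjusted p = 0.348). Rhox5, an X-linked homeobox gene of the germ line, had 22.9, 199 and 147, against 214 and 228 (-1.10 ± 0.50, adjusted p = 0.264). Myeloid progenitor array 1 was the lowest for both genes. The summed intensity of the 17 genes was 1671, 7119 and 5358 in knockout myeloid progenitors and 4474 and 3521 in knockout LT-HSCs. In control arrays of the same populations it was 374 to 485, below each of the 5 knockout arrays.

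Of 15 genes of DNA methylation and methyl binding, 0 were called by limma and 2 had an unadjusted p under 0.05 (median -0.13). Of all genes, 17.9% had such a p. Dnmt3a, which encodes a de novo methyltransferase, had 532, 471 and 640.1 in knockout myeloid progenitors, against 934 and 714 in knockout LT-HSCs (-0.64 ± 0.27, adjusted p = 0.238). Gadd45a, which encodes a stress-induced protein, had 86.9, 156 and 100.1, against 36.8 and 60.2 (1.01 ± 0.29, adjusted p = 0.0743). The values of both genes did not overlap between groups, but their differences missed the threshold.

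Genes of energy metabolism and protein synthesis gave 1 call, in the higher direction, in which 2.39% of all genes were called. Of 18 glycolysis genes tested (median 0.44), 6 higher and 1 lower had an unadjusted p under 0.05, and 8 did not overlap between groups in the higher direction. Over all genes, 17.9% had an unadjusted p under 0.05 in either direction, and 19.5% did not overlap in the higher direction. The other unadjusted counts of this paragraph stand beside the same 17.9%. The call was Pgam1, which encodes phosphoglycerate mutase, at 2369, 1960 and 2219 in knockout myeloid progenitors, against 1215 and 1349.7 in knockout LT-HSCs (0.62 ± 0.15, adjusted p = 0.0384). Its call was lost when any 1 of the 5 arrays was left out, and without knockout LT-HSC array 2 the list had 4 calls. Of 61 oxidative phosphorylation genes (median 0.27), 40 cytosolic ribosomal protein genes (median 0.10) and 31 ribosome biogenesis genes (median -0.13), 0 were called by limma. At an unadjusted p under 0.05 the counts were 2, 1 and 2, and without knockout LT-HSC array 2 the first list had 1 call. The interferon response list, relevant because of the poly(I)poly(C) injections, gave 0 calls by limma among 29 genes tested and 2 at an unadjusted p under 0.05, with a median of -0.30. Its summed intensity was 5260 and 5720.1 on knockout myeloid progenitor arrays 1 and 2 and 11429 on array 3, against 5662 and 12056 in knockout LT-HSCs. The arrays high for this list were those high for mature granulocyte genes, and without knockout LT-HSC array 1 or 2 the list's median was -0.99 and 0.26. For 16 immediate early genes, 20 adhesion genes, 9 MHC class I genes and 7 endothelial and stromal genes there were 0 calls by limma, with medians between -0.13 and 0.01. At an unadjusted p under 0.05 the counts were 2, 2, 0 and 1, and without knockout LT-HSC array 2 the first list had 1 call.

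The same pair of populations was compared in control mice, which share no array with the knockouts, to see how far the difference depended on genotype. Control myeloid progenitors differed from control LT-HSCs at 555 genes (6.44%), 352 higher (4.09%) and 203 lower (2.36%). That count was 203 without control LT-HSC array 1 and 311 and 369 without control myeloid progenitor arrays 1 and 3. Of the 323 genes called in knockouts, 244 were called in controls in the same direction and 0 in the opposite one, which is 75.5% of the knockout calls and 44.0% of the control calls. Among all genes tested the 2 differences correlated across genes at r = 0.796 and rho = 0.688, and genes are not independent replicates. Knockout and control pools of a replicate were littermates, and their deviations from the group means correlated at 0.20 to 0.61. The 2 comparisons are therefore not independent of each other. Granule genes had 16 of 19 called higher in knockouts (median 2.99) and 17 of 19 in controls (median 3.32). B cell genes had 13 of 22 called lower in knockouts (median -1.89) and 12 in controls (median -2.20). T and NK cell genes had 10 of 24 called lower in knockouts (median -1.53) and 4 in controls (median -0.72). These counts do not show that the genotypes differ.

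The test of the difference itself, knockout difference minus control difference, called 0 of 8612 genes by limma. At an unadjusted p under 0.05 it found 228 genes (2.65%), 105 higher and 123 lower. The smallest adjusted p was 0.147. It belonged to Rhoc, the 1 gene called when knockout LT-HSC array 2 was left out, for which the knockout difference was -3.22 and the control difference 0.26. Rhoc intensities were 3.42, 8.02 and 7.73 in control myeloid progenitors and 3.98 and 2.00 in control LT-HSCs, so among these 4 groups the signal was high on the 2 knockout LT-HSC arrays only. The median standard error of this difference of differences was 0.454, against 0.321 for the knockout difference, and a miss at this precision does not show equal responses.

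Other genes with small unadjusted p-values in that test are given as values. Slpi, which encodes a protease inhibitor of granulocytes, had 1139, 827 and 1130.3 in knockout myeloid progenitors and 345 and 84.1 in knockout LT-HSCs, and 754, 751 and 868 in control myeloid progenitors and 4.99 and 2.46 in control LT-HSCs. Its differences were 2.41 in knockouts and 5.31 in controls (change -2.90 ± 0.78, unadjusted p = 0.00246). Cebpa had differences of 2.69 in knockouts and 4.42 in controls (change -1.73 ± 0.51, unadjusted p = 0.00444), with control values of 764, 893 and 679 in myeloid progenitors and 14.2 and 28.3 in LT-HSCs. Lef1, which encodes a lymphoid transcription factor of the Wnt pathway, had 7.68, 4.88 and 3.82 in knockout myeloid progenitors and 22.7 and 21.0 in knockout LT-HSCs, and 10.4, 5.08 and 4.65 in control myeloid progenitors and 193 and 101 in control LT-HSCs (change 1.98 ± 0.42, unadjusted p = 0.000363). For Slpi the knockout LT-HSC arrays were above the control ones, and for Lef1 below them.

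**Figure D4:**
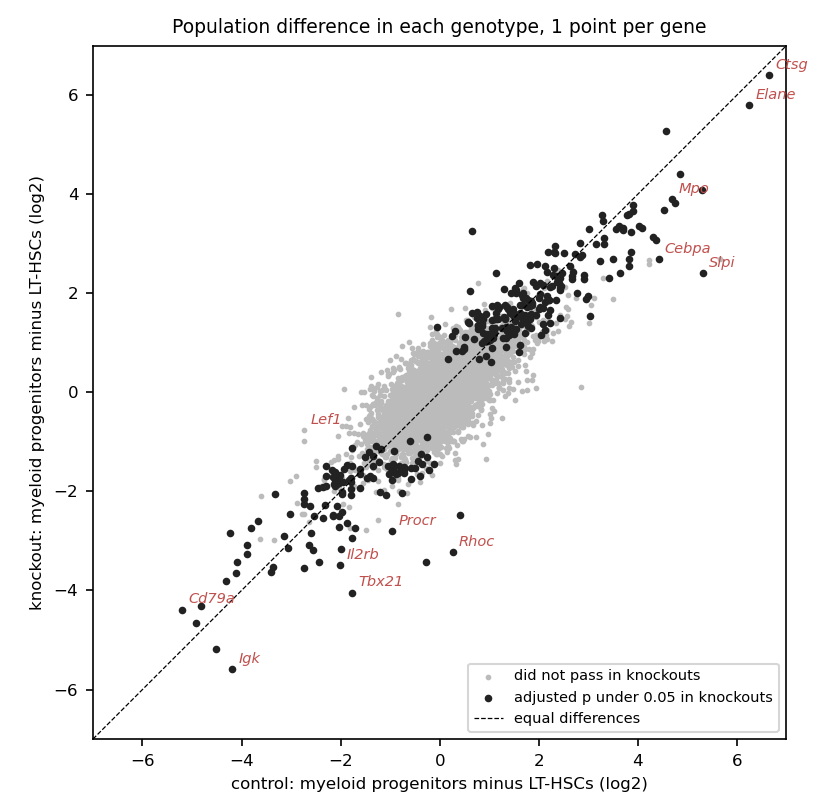
Log2 difference between myeloid progenitors and LT-HSCs in knockout mice (vertical axis) against the same difference in control mice (horizontal axis), 1 point per gene tested, with the genes called in knockouts in black and the dashed line marking equal differences. Across all genes tested the 2 differences correlate at r = 0.796, and Rhoc (-3.22 in knockouts, 0.26 in controls) and Slpi (2.41 and 5.31) lie away from the line.

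Knockout multipotent progenitors, sorted as CD34+ cells of the stem cell gate, were used to place the called genes along the hierarchy. Their mean lay between those of knockout myeloid progenitors and knockout LT-HSCs for 198 of the 206 genes called higher and for 99 of the 117 called lower, beside 44.7% of all genes. It lay nearer to the myeloid progenitor mean for 142 of the 206 and for 94 of the 117, beside 58.8% of all genes. Genes picked for a large difference leave more room between their means, so these counts describe the called genes and support nothing further. Ctsg had 1836 and 2377 and Cebpa 356 and 369 on the 2 knockout multipotent progenitor arrays, both between the 2 ends, as did Ccl9 with 792 and 802. Il2rb had 10.2 and 22.0, close to the myeloid progenitor level.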

How the data were processed

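The authors deposited 1 linear intensity for each probe set of an array. No source used here states the summarisation or scaling of these values. The labels gave each array's group. Symbols came from the platform annotation (20380 of 22690 probe sets with 1 symbol, 691 with several, 1555 with none; 64 controls). Probe sets above their array's 40th percentile on 2 or more arrays were kept, and the brightest by mean stood for its gene, which left 8612 of 12393 genes. Values were log2(intensity + 16), quantile normalized. limma 3.58.1 (R 4.3.3) fitted 6 group means to 14 arrays with a variance trend (8 residual degrees of freedom), with Benjamini-Hochberg adjustment, and the procedure was tested on simulated data. The number of arrays limits precision.

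The comparison of these 2 populations and the gene lists were chosen with earlier results of these data known; within the comparison, labels alone assigned the arrays. Genes named were the 15 largest calls in each direction, up to 6 per list by smallest p, 5 per direction of the genotype test, and the sort and deleted genes, apart from those marked. Per the labels, knockout and control pools of a replicate were littermates. Their deviations from the group means correlated at 0.20, 0.54 and 0.61 in myeloid progenitors and 0.46 in LT-HSCs. With that pairing as a block the genotype test also called 0 genes. Alternatives covered normalization, pseudocount, filter, probe sets, fit and left-out arrays.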

Additional observations from a re-analysis of the deposited data

How the results depend on the processing

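The number of genes called between knockout myeloid progenitors and knockout LT-HSCs was 323. Normalization, pseudocount, filter, probe set and fit alternatives moved it by less than 1.5 times (281 to 355). Leaving out 1 array gave 93 to 708. With the 5 arrays fitted alone 247 of the calls remained. The samples of the 2 populations share only replicate numbers, and same-numbered samples did not deviate together (-0.06 and -0.40). Knockout myeloid progenitor array 2 deviated with knockout LT-HSC array 1 (0.40), and array 3 with LT-HSC array 2 (0.37). The same pairs in controls gave 0.42 and 0.43. Deviations of 2 LT-HSC arrays are mirror images, so these values are not independent. A block by number does not model such a pattern, and its cause was not tested. With the number as a replicate block 270 genes were called, 244 of them among the 323, and the block changed no call count by over 1.5 times. The control comparison (555) gave 323 when only its own arrays were fitted and 203 to 727 with 1 array left out. The test between genotypes called 0 genes under each alternative except 1 without knockout LT-HSC array 2, so leaving out 1 array gave 0 to 1. It also called 0 without LT-HSC replicate 1 of both genotypes, an alternative chosen after seeing the data because that replicate had high Gapdh 3' to 5' ratios. With 1 array left out, the median of mature granulocyte genes ran from -0.23 to 1.57, the S100a8 difference from -0.83 to 3.51 and the S100a9 difference from -1.59 to 5.51, with the negative values without knockout LT-HSC array 1; the cause was not tested. Of the other per-gene and list values, 1999 counted as unchanged, 180 gene values lost their call, 19 gained one and 26 list medians moved. A gene value was unchanged if it kept its direction and its side of the threshold. A list median was unchanged if it moved by less than the median standard error of its members. A small median could thus change sign and count as unchanged, as for DNA replication genes (-0.02, and 0.07 without knockout LT-HSC array 2).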
